A study of Rattus norvegicus with 18 samples.

Results

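Microglia are the resident macrophages of the brain, and their messenger RNAs form a small share of the RNA of whole cortex. The transcripts examined here are 37 genes of microglia and related myeloid cells, with Selplg among them, in the prefrontal cortex (PFC) of 18 rat pups. The list was taken by gene symbol, and it was chosen by earlier results of these same data: Selplg is 1 of the 7 genes that differed between the 2 oxycodone-exposed groups, and the others are known genes of microglia and their relatives. Of the 37 genes, 36 had a row in the deposited tables, and Itgam was not analysed here. All 36 passed the filter on low counts, out of 32623 genes listed and 15703 tested.

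The pups were Sprague Dawley rats taken at postnatal day 14 (P14), with 6 pups in each of 3 groups. Saline (SAL) pups came from dams that received the vehicle by oral gavage. Dams of the postnatal (PNO) group received 15 mg/kg/day of the opioid oxycodone from birth onward, so that exposure was through the breastmilk. Dams of the in utero (IUO) group received 10 mg/kg/day rising to 15 mg/kg/day before mating and stayed on oxycodone through gestation and nursing, so that these pups were exposed before and after birth. Litter and sex of each pup were not given in the labels, and p-values therefore treat the pups as independent. Expected counts summed to between 18381819 and 26084780 per pup (median 22726306), and no 2 of the 153 pairs of pups had identical values.

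Microglia survey the tissue with fine processes, prune synapses and clear debris during the first postnatal weeks. In the healthy brain they are recognized by a homeostatic set of genes that includes the purinergic receptor P2ry12, the fractalkine receptor Cx3cr1 and the membrane protein Tmem119, and they depend on signals through the receptor Csf1r. Selplg encodes P-selectin glycoprotein ligand 1 (PSGL-1), a mucin-like surface protein that binds selectins on vessel walls and platelets. It is best known from blood leukocytes, and in the brain it is counted among the microglial genes.

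Promoter windows of the genes (250 bases before to 50 bases after the start of transcription, from RefSeq, build GRCr8) were read for 22 of the 37 genes, Itgam included. The genome build behind the deposited counts is not given in the sources used here, and no coordinates were taken from the counts. The windows are shown for 4 genes to which the values below return. C1qa and C1qb are complement genes close to each other on chromosome 5 whose levels were alike from pup to pup. Among the listed genes, Inpp5d had the smallest edgeR p-value between PNO and SAL. Mertk had the highest correlation with Selplg over the 18 pups among the listed genes after Tmem119, a value that holds the group difference. Each window reads 5′ to 3′ on the strand of the gene, and capitals mark GAGGAA or its reverse complement TTCCTC, the purine-rich core bound by PU.1, the factor encoded by Spi1.
C1qa, chr5:154419884-154420183, minus strand: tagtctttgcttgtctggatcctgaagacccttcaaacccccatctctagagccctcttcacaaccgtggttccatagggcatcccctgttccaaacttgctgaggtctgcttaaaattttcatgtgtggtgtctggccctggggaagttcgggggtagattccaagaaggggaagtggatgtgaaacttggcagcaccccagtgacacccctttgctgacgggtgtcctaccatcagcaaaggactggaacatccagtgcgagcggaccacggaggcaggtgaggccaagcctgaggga
C1qb, chr5:154407778-154408077, minus strand: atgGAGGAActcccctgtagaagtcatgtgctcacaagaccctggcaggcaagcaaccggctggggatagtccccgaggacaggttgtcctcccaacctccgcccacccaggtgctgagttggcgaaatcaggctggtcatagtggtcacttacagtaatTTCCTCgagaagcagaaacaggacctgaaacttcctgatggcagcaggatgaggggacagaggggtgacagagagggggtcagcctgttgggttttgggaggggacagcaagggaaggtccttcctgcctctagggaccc
Inpp5d, chr9:95735283-95735582, plus strand: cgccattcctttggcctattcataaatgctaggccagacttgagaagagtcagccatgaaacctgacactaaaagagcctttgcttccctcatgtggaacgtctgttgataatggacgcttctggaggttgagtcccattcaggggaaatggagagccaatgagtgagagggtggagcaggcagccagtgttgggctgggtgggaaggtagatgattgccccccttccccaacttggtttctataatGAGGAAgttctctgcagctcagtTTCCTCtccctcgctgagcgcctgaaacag
Mertk, chr3:136392324-136392623, plus strand: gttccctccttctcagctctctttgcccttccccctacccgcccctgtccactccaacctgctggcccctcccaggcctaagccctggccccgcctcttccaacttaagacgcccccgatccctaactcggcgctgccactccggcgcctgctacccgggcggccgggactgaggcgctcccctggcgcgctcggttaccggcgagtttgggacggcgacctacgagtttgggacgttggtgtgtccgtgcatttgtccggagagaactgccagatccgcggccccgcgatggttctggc

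The 6 letters, searched on both strands, were found in 13 of the 23 windows of the microglia genes (56.5%; Cd33 has 2 windows) and in 27.6% of all 33469 promoter windows of 300 bases. The windows of C1qb and Inpp5d each held the letters at 2 places, whereas those of C1qa and Mertk held them at none. A match of 6 letters is a description of the window and not a binding site. Promoters of Selplg and Tmem119 are not shown.

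The abundance of the genes was compared in TPM (transcripts scaled to gene length and to the library total), so that genes can be set beside each other. In SAL the 36 genes spanned a 54.7-fold range. Aif1, which encodes the cytoskeletal protein IBA1, was highest with 63.7 ± 7.44 TPM (mean ± SD, n = 6), followed by the lysosomal protease Ctss with 56.6 ± 6.38 TPM and the complement chain C1qb with 47.5 ± 5.94 TPM. The lowest were Ptprc, the leukocyte phosphatase CD45, with 1.29 ± 0.369 TPM, the phospholipase Plcg2 with 1.24 ± 0.396 TPM and the exchange factor Vav1 with 1.16 ± 0.324 TPM.

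The order was gradual rather than stepped. Of the 35 neighbours in the order of SAL means, 34 overlapped in their range over the 6 pups, and only Tyrobp and Laptm5 did not. In SAL 14 genes had a mean of 10 TPM or more and 22 lay between 1 and 10 TPM. The median over the 36 genes was 6.84 TPM, below the median of 14.3 TPM over all genes tested. Selplg (9.02 ± 2.53 TPM) and Tmem119 (9.82 ± 4.56 TPM) stood near the middle of the order, and their ranges overlapped each other in SAL.

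**Figure D1:**
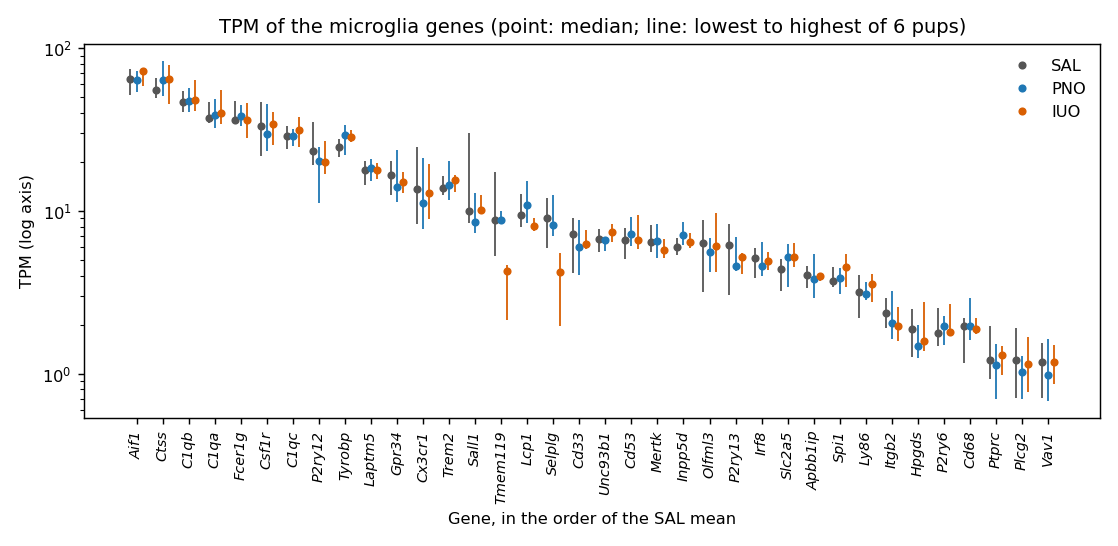
TPM of the 36 microglia genes on a log axis, in the order of their SAL mean, for SAL, PNO and IUO. Points are medians and lines run from the lowest to the highest of 6 pups; the IUO lines of Selplg and Tmem119 lie below those of SAL and PNO, and Aif1 is the highest gene in SAL at 63.7 TPM.

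Markers of other cells give the setting of these levels. Summed over 9 markers of border macrophages (perivascular and meningeal macrophages) the pups had between 11.3 and 25.1 TPM, and summed over 9 markers of neutrophils and monocytes between 1.98 and 6.57 TPM, with the monocyte receptor Ccr2 listed at 0 in every pup. The 12 lymphocyte markers summed to between 3.96 and 7.70 TPM. In contrast, the 34 microglia genes other than Selplg and Tmem119 summed to between 451.6 and 593.9 TPM. In bulk tissue, fewer cells of a type and less RNA per cell cannot be told apart.

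Selplg was lower in IUO than in either of the other groups. In TMM-normalized CPM (counts scaled to the library total), the unit of the comparisons between groups, Selplg ranged from 4.97 to 8.91 in SAL with a median of 6.28. In PNO it ranged from 5.75 to 8.46 with a median of 6.57. In IUO it ranged from 1.53 to 4.18 with a median of 3.04. Each of the 6 IUO pups was thus below every SAL and every PNO pup, and SAL and PNO overlapped throughout. Group means were 6.64 ± 1.62 CPM in SAL, 6.88 ± 1.11 CPM in PNO and 3.01 ± 0.874 CPM in IUO (SD, n = 6). These levels rest on 106 to 193 expected counts per pup in SAL, 108 to 225 in PNO and 31 to 81 in IUO.

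Between IUO and PNO the log2 fold change of Selplg was -1.19 (SE 0.20), a 2.29-fold lower level. That contrast chose the gene, and its value is given as a description with no test. Against SAL the log2 fold change in IUO was -1.14 (SE 0.20, 95% interval -1.57 to -0.71, edgeR adjusted p = 0.0997), which missed the threshold of 0.05, and the IUO pups are those of the contrast that chose Selplg. The PNO pups differed from SAL by 0.05 on the log2 scale (SE 0.20, 95% interval -0.37 to 0.48, edgeR adjusted p = 0.967).

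Tmem119, a transmembrane protein used as a marker of resident microglia, was also lowest in IUO. It ranged from 6.70 to 22.5 CPM in SAL with a median of 10.7, from 10.4 to 14.1 CPM in PNO with a median of 12.8, and from 2.90 to 6.00 CPM in IUO with a median of 5.53. Again every IUO pup was below every pup of the other groups, and the SAL pups were the most spread. Means were 12.8 ± 5.84 CPM in SAL, 12.5 ± 1.34 CPM in PNO and 5.01 ± 1.16 CPM in IUO. The log2 fold change was -1.32 between IUO and PNO (SE 0.24, 95% interval -1.83 to -0.80, edgeR adjusted p = 0.0524) and -1.34 between IUO and SAL (SE 0.24, edgeR adjusted p = 0.0997). Neither passed the adjusted threshold, although the difference was 2.49-fold in the first comparison and 2.54-fold in the second. Between PNO and SAL the value was -0.03 (SE 0.24, edgeR adjusted p = 0.985).

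Selplg and Tmem119 were the 2 of the 36 microglia genes whose IUO pups all fell below every SAL and PNO pup. Over all genes tested, 12 had this pattern, which is 0.0764%. Selplg was chosen for its difference between IUO and PNO, so its place among the 2 was largely fixed by that choice. Adjusted p-values of Tmem119 depended on the test: between IUO and PNO they lay between 0.000102 and 0.219 over the alternatives, and between IUO and SAL between 0.000137 and 0.285. For Selplg they lay between 9.4e-05 and 0.285 between IUO and SAL. With DESeq2, Selplg and Tmem119 had adjusted p-values of 9.4e-05 and 0.000137 between IUO and SAL.

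**Figure D2:**
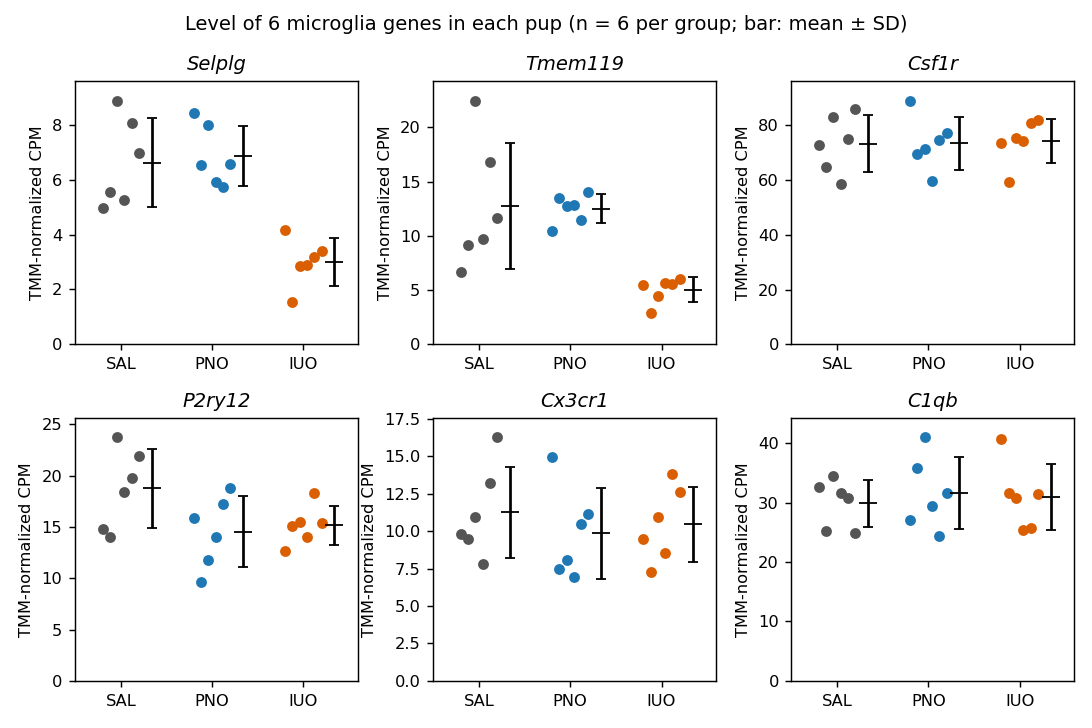
CPM of Selplg, Tmem119, Csf1r, P2ry12, Cx3cr1 and C1qb in each pup (1 point per pup) with the group mean ± SD (n = 6) to the right of the points. Selplg and Tmem119 of IUO lie below all other pups (at most 4.18 and 6.00 CPM), whereas the IUO pups of the other 4 genes lie within the range of the other groups or overlap it.

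Selplg and Tmem119 are next to each other on chromosome 12 in RefSeq (GRCr8), with no other protein-coding gene listed between them. Their neighbours had smaller differences. Coro1c, the neighbour beside Selplg and an actin-binding coronin, had a log2 fold change of 0.18 between IUO and PNO (SE 0.06, edgeR adjusted p = 0.159). Iscu, the iron-sulfur cluster scaffold on the side of Tmem119, had a log2 fold change of -0.22 (SE 0.13, edgeR adjusted p = 0.440). Further out, Sart3 had 0.07 and Ficd -0.01, and Cmklr1, a chemerin receptor of myeloid cells, had 0.60 (SE 0.23, edgeR adjusted p = 0.229) with 1.33 ± 0.492 CPM in PNO and 2.02 ± 0.345 CPM in IUO. None of these neighbours passed the adjusted threshold. Coro1c and Cmklr1 had an unadjusted p under 0.05 with a higher level in IUO than in PNO (6.14% over all genes). They did so against SAL too, with log2 fold changes of 0.14 and 0.54 (3.02% over all genes).

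The other 34 genes went in both directions, and their mean log2 CPM was 3.13 ± 0.09 in SAL, 3.18 ± 0.10 in PNO and 3.14 ± 0.11 in IUO. Relative to that mean, Selplg stood at -0.42 ± 0.31 in SAL, -0.39 ± 0.17 in PNO and -1.57 ± 0.44 in IUO on the log2 scale. Tmem119 stood at 0.43 ± 0.59, 0.47 ± 0.15 and -0.83 ± 0.40 in the same groups. The log2 difference between Tmem119 and Selplg themselves stayed at 0.85 ± 0.31, 0.86 ± 0.32 and 0.74 ± 0.21. Summed in TPM, the other 34 genes had medians of 530.1 in SAL, 518.8 in PNO and 533.3 in IUO.

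**Figure D3:**
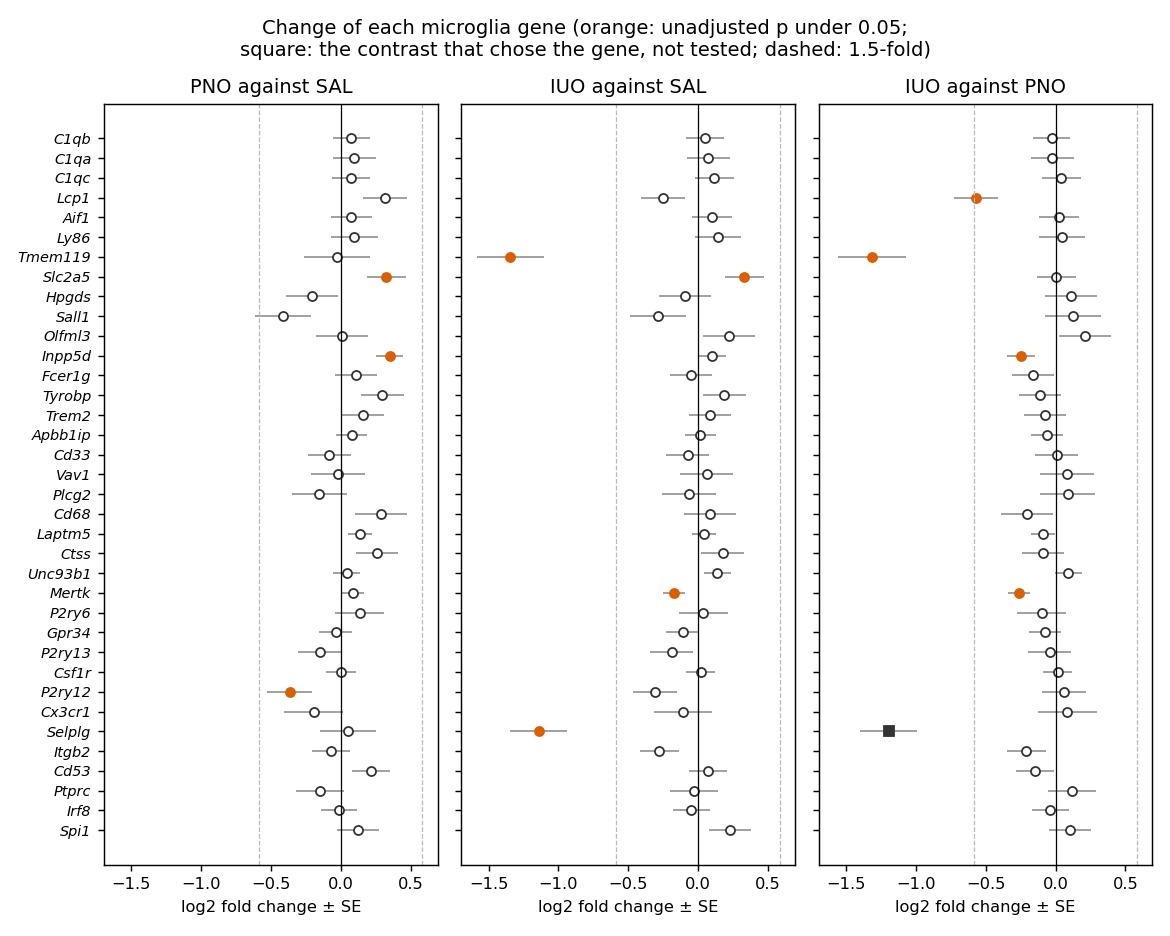
Log2 fold change ± SE of each of the 36 microglia genes in the 3 comparisons, grouped by role; orange points have an unadjusted p-value under 0.05 and dashed lines mark 1.5-fold. Selplg (square between IUO and PNO, not tested) and Tmem119 lie beyond -1 in both comparisons with IUO, and no other gene reaches 1.5-fold in any comparison.

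Counts over the list were as follows. Between PNO and SAL no gene of the 36 reached 1.5-fold with an adjusted p below 0.05 (the rule for a call), as for all genes tested (0%; with edgeR 297 genes had an unadjusted p under 0.05 with a higher level and 409 with a lower level, and DESeq2 called 1 gene and limma-voom 0). At an unadjusted p under 0.05, 2 of the 36 were higher (Inpp5d and Slc2a5) and 1 was lower (P2ry12), where 1.89% of all genes were higher and 2.6% lower. These 3 became 1 without SAL pup 6 or PNO pup 2, 2 without SAL pup 1 or PNO pup 3, 4 or 6, 5 without SAL pup 4, 6 without PNO pup 1 and 7 without PNO pup 5. The median log2 fold change of the 36 genes was 0.08 and that of all genes 0.00.

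Between IUO and SAL none of the 36 was called by edgeR and none of all genes was (0%; 474 genes had an unadjusted p under 0.05 with a higher level and 607 with a lower level, and DESeq2 called 22 genes and limma-voom 17). At an unadjusted p under 0.05, 1 of the 36 was higher (Slc2a5) and 3 were lower (Selplg, Tmem119 and Mertk), against 3.02% higher and 3.87% lower over all genes. Selplg was chosen by the difference of these IUO pups from PNO, and 2 of the other 35 genes were lower. Without SAL pup 4 the 4 of the 36 became 2. The median log2 fold change was 0.03 for the 36 genes and -0.01 for all genes.

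Between IUO and PNO Selplg was the 1 gene of the list among the 7 called (0.0446% of all genes), a count that the choice of Selplg fixes. How far that selecting call depends on the settings is given as a description of the choice and not as a test of Selplg. The call was also made with DESeq2, limma-voom, DESeq2 size factors, no composition normalization, no filter on low counts, only the 12 pups compared and the microglia score as a covariate. It was not made with the replicate block or with the myelin score, and with 1 pup left out at a time it was made in 2 of 12 fits (without PNO pup 5 and without IUO pup 1). At an unadjusted p under 0.05 none of the 36 was higher and 5 were lower, Selplg among them, against 6.14% higher and 9.14% lower over all genes. The other 4 were Tmem119, Lcp1, Mertk and Inpp5d. The median log2 fold change was -0.03 for the 36 genes and 0.00 for all genes. The 3 comparisons share pups pairwise, and their values are not independent of each other.

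Surface and leukocyte proteins other than Selplg had small differences. Itgb2, the integrin beta chain CD18, had a median of 4.55 CPM in SAL, 4.2 in PNO and 3.70 in IUO, and its log2 fold change against SAL in IUO was -0.28 (SE 0.14, edgeR adjusted p = 0.752). Ptprc and the tetraspanin Cd53 had log2 fold changes between -0.15 and 0.22 in the 3 comparisons. The groups of these 3 genes overlapped.

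Among the sensing receptors, P2ry12, which steers microglial processes toward nucleotides, was highest in SAL. It ranged from 14.0 to 23.8 CPM in SAL with a median of 19.1, from 9.60 to 18.8 CPM in PNO with a median of 15.0, and from 12.7 to 18.3 CPM in IUO with a median of 15.3. The groups overlapped. Between PNO and SAL the log2 fold change was -0.37 (SE 0.16, edgeR adjusted p = 0.912), which did not pass after adjustment, and between IUO and SAL it was -0.31 (SE 0.16, edgeR adjusted p = 0.776).

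Mertk encodes a receptor tyrosine kinase for the engulfment of dying cells and is also made by astrocytes. It ranged from 17.7 to 19.9 CPM in SAL with a median of 18.7, from 16.8 to 21.9 CPM in PNO with a median of 20.9, and from 15.3 to 18.7 CPM in IUO with a median of 16.7. The log2 fold change was -0.26 between IUO and PNO (SE 0.08, edgeR adjusted p = 0.145) and -0.17 between IUO and SAL (SE 0.08, edgeR adjusted p = 0.713). Neither passed after adjustment, and the groups overlapped. Of 6 astrocyte markers, 2 (Gfap and Aqp4) had an unadjusted p under 0.05 with a lower level in IUO than in PNO (9.14% over all genes) and none between IUO and SAL, and none passed after adjustment. Their summed levels ran from 680 to 1245 TPM in SAL, from 676 to 1241 TPM in PNO and from 689 to 949 TPM in IUO, and their part in the level of Mertk was not tested.

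Csf1r, the receptor for the survival signals CSF1 and IL-34, stood at 73.3 ± 10.5 CPM in SAL, 73.5 ± 9.71 CPM in PNO and 74.2 ± 8.13 CPM in IUO. Its 95% interval between IUO and SAL ran from -0.21 to 0.24 on the log2 scale. Cx3cr1 was more variable, with 11.3 ± 3.04, 9.85 ± 3.02 and 10.5 ± 2.49 CPM in SAL, PNO and IUO and an interval from -0.56 to 0.34 between IUO and SAL. The purinergic receptors P2ry13 and P2ry6 and the lysophospholipid receptor Gpr34 had log2 fold changes between -0.19 and 0.14 in the 3 comparisons.

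Of the homeostatic genes other than Tmem119, the fructose transporter Slc2a5 (GLUT5) was lowest in SAL. It ranged from 4.93 to 6.83 CPM in SAL with a median of 5.5, from 5.09 to 9.37 CPM in PNO with a median of 7.22, and from 5.97 to 8.31 CPM in IUO with a median of 6.87. Both exposed groups had the same log2 fold change of 0.33 against SAL (SE 0.14 in each; edgeR adjusted p = 0.912 in PNO, edgeR adjusted p = 0.673 in IUO). The groups overlapped, and neither difference passed after adjustment.

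Sall1, a transcription factor of microglial identity, had 1 SAL pup at 81.2 CPM while the other 5 reached at most 36.3 CPM. Its medians were 32.6 CPM in SAL, 30.3 in PNO and 33.1 in IUO. The secreted protein Olfml3 had a log2 fold change of 0.22 in IUO against SAL (SE 0.19, edgeR adjusted p = 0.931), and Hpgds, a prostaglandin D synthase, had -0.09 (SE 0.19, edgeR adjusted p = 0.996). The myeloid transcription factors Spi1 (PU.1) and Irf8 had log2 fold changes between -0.05 and 0.23 over the 3 comparisons.

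The C1q chains, which start the classical complement pathway and tag synapses, were level across the groups. C1qa had 24.1 ± 3.58 CPM in SAL, 25.8 ± 5.63 in PNO and 25.4 ± 5.22 in IUO. C1qb and C1qc had log2 fold changes between -0.03 and 0.12 in the 3 comparisons. None of the 3 chains had an unadjusted p under 0.05.

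Among the signalling genes, Inpp5d, the inositol phosphatase SHIP1 that restrains signals from immune receptors, had its highest level in PNO. It ranged from 16.2 to 20.7 CPM in SAL with a median of 17.7, from 20.2 to 29.7 CPM in PNO with a median of 22.1, and from 18.2 to 22.4 CPM in IUO with a median of 19.4. SAL and PNO overlapped by a narrow margin. The log2 fold change was 0.35 between PNO and SAL (SE 0.10, edgeR adjusted p = 0.912) and -0.25 between IUO and PNO (SE 0.10, edgeR adjusted p = 0.243), and neither passed after adjustment. The receptor Trem2, its adaptor Tyrobp, the Fc receptor chain Fcer1g, the lectin Cd33, Plcg2, Vav1 and the adaptor Apbb1ip had log2 fold changes between -0.16 and 0.30.

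Lcp1, the actin-bundling protein L-plastin of leukocytes, had its lowest median in IUO. It ranged from 14.3 to 31.7 CPM in SAL with a median of 19.2, from 20.1 to 34.1 CPM in PNO with a median of 25.8, and from 16.2 to 19.1 CPM in IUO with a median of 17.0. The IUO pups lay within the range of SAL. Its log2 fold change between IUO and PNO was -0.57 (SE 0.16, edgeR adjusted p = 0.123), which did not pass after adjustment. Aif1 and Ly86, the partner of the receptor RP105, had log2 fold changes between 0.02 and 0.14. The lysosomal and endosomal genes Ctss, Cd68, Laptm5 and Unc93b1 had values between -0.20 and 0.29, with no unadjusted p under 0.05.

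**Figure D4:**
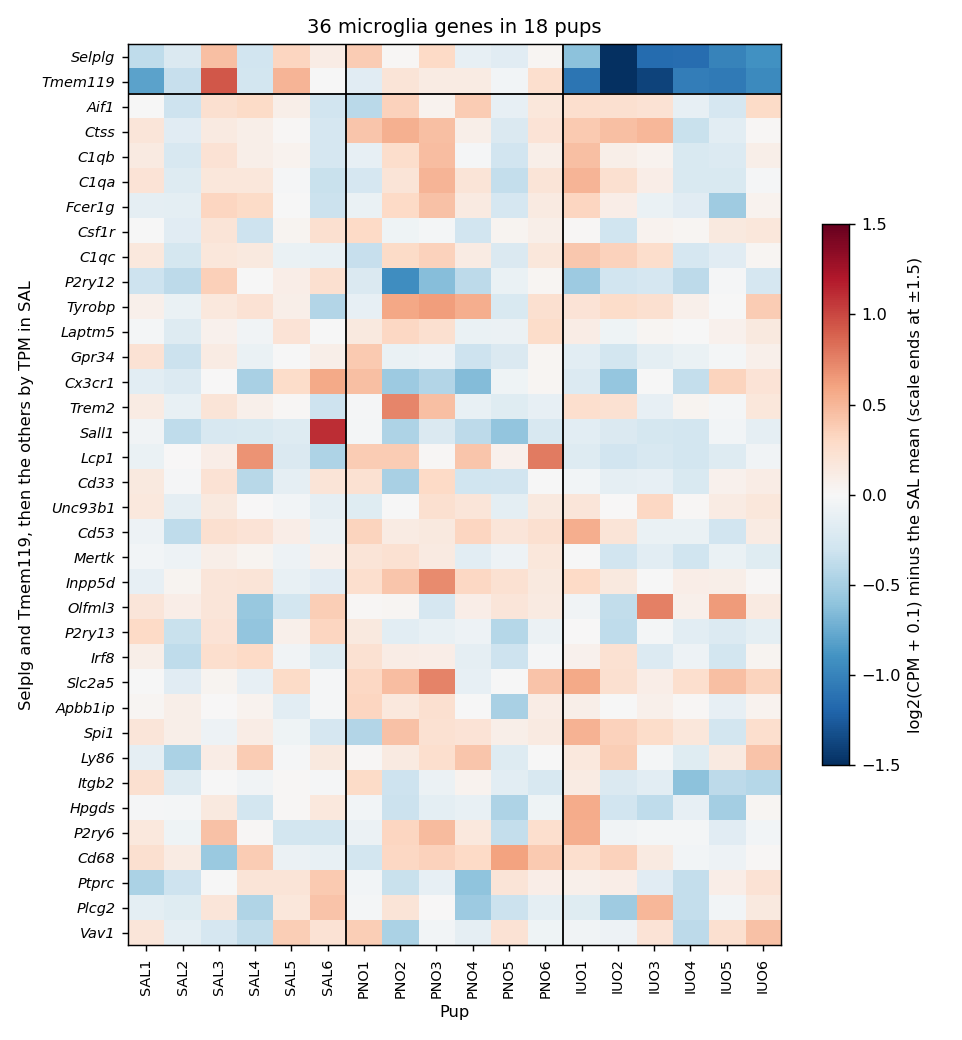
Log2(CPM + 0.1) of the 36 microglia genes (rows) in 18 pups (columns), each minus the SAL mean of its gene; colours end at ±1.5. The upper 2 rows, Selplg and Tmem119, are blue in all 6 IUO pups, and no other row is blue to that depth in all 6 of them.

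Whether Selplg moves with the other genes was asked pup by pup on log2 CPM. Selplg and Tmem119 had a Pearson's r of 0.93 and a Spearman's rho of 0.89 over the 18 pups, and an r of 0.89 without the 2 pups farthest from the median. This value holds the group difference by which Selplg was chosen, and it is a description with no p-value. Within groups of 6 the r was 0.96 in SAL, -0.36 in PNO and 0.90 in IUO. Taken as deviations from the group means, the r was 0.76. In PNO, where Tmem119 varied least, the genes did not rise and fall together.

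Mertk had an r of 0.78 with Selplg over the 18 pups (rho 0.74), which again holds the group difference, and 0.35, 0.69 and 0.75 within SAL, PNO and IUO. As deviations from the group means its r was 0.56, rank 316 of 15702 genes. With deviations from the group means, Csf1r came after Tmem119 among the listed genes, with an r of 0.70 (rank 40 over all genes tested). Within SAL, PNO and IUO Csf1r had 0.70, 0.62 and 0.83. Over all 18 pups Csf1r had an r of 0.31 with Selplg. Cd68 ran opposite to Selplg within the groups (r -0.91 in SAL, -0.74 in PNO and -0.46 in IUO).

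The mean of the other 34 genes had an r of 0.30 with Selplg over the 18 pups, and of 0.50, 0.70 and 0.41 within SAL, PNO and IUO. Tmem119 had an r of 0.20 with the same mean over the 18 pups, and of 0.48, 0.41 and 0.06 within SAL, PNO and IUO. Among all genes tested, the 10 most like Selplg by r over the 18 pups were Tmem119, Hadh, Agpat3, Tp53inp2, Dscr3, Ppp1r3d, Hacd2, Sav1, Rnf144b and Miga2, with r from 0.93 down to 0.81. Of these 10, 1 is a microglia gene of the list. This order too holds the group difference by which Selplg was chosen. Ranked by deviations from the group means, Tmem119 had rank 9 of 15702, and the other 9 had ranks from 63 (Tp53inp2) to 2411 (Ppp1r3d), with r from 0.66 down to 0.31.

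**Figure D5:**
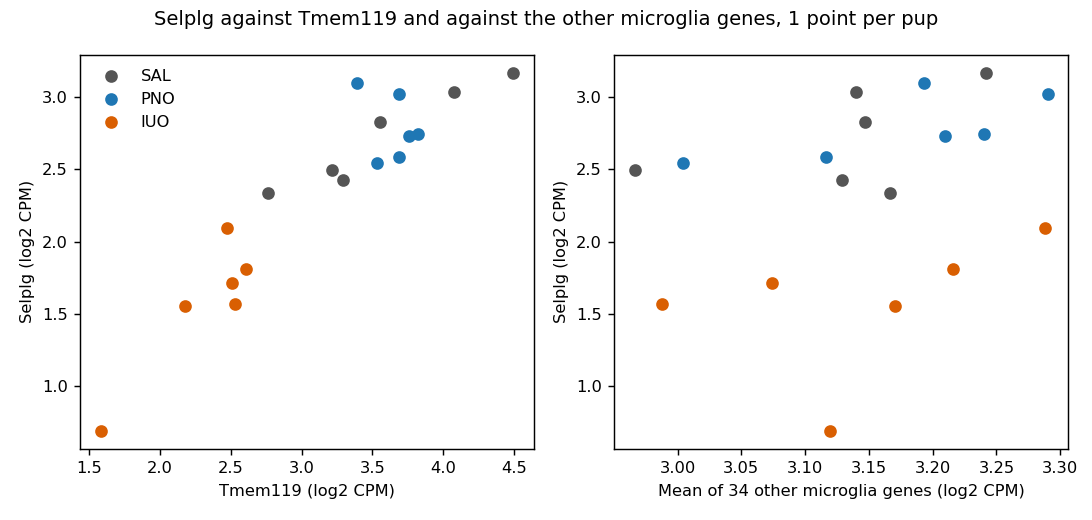
Selplg (log2 CPM) against Tmem119 (left) and against the mean of the other 34 microglia genes (right), 1 point per pup, coloured by group. On the left the 18 pups lie along a rising line (r 0.93), and on the right the 6 IUO pups lie below the others at every value of the mean (r 0.30).

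The microglia genes themselves varied in more than 1 pattern. Over the 630 pairs of the 36 genes, the median r of deviations from the group means was 0.19, whereas a microglia gene had a median r of 0.00 with all genes. An r over 0.5 was found in 19.7% of the pairs and in 10.4% of pairs with all genes. C1qa and C1qb, whose promoters are shown above, had an r of 0.94, C1qa and C1qc of 0.92, and C1qb and C1qc of 0.87.

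In all, 15 genes had an r over 0.5 with C1qb: C1qa, C1qc, Fcer1g, P2ry6, Ctss, Tyrobp, Trem2, Aif1, Unc93b1, Irf8, Inpp5d, Spi1, Slc2a5, Cd53 and Laptm5. A different 8 had an r over 0.5 with Csf1r: Cx3cr1, Gpr34, Plcg2, Selplg, P2ry13, Cd33, Vav1 and Olfml3. No gene was in both groups, and C1qb and Csf1r had an r of -0.18. These correlations share the same 18 libraries.

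Genes around Selplg were read from a list of 17 genes for selectins, the enzymes that build their sugar ligands and the proteins that anchor and signal below PSGL-1, of which 15 were tested. None of them was called. With an unadjusted p under 0.05 none was higher and 4 of the 15 were lower in IUO than in PNO (6.14% higher and 9.14% lower over all genes), and the median log2 fold change was -0.01. St3gal6, a sialyltransferase that caps selectin ligands, had 7.99 ± 0.913 CPM in SAL, 8.18 ± 1.33 in PNO and 6.07 ± 0.370 in IUO. Its log2 fold change was -0.43 between IUO and PNO (SE 0.11, edgeR adjusted p = 0.110) and -0.40 between IUO and SAL (SE 0.11, edgeR adjusted p = 0.424).

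The others of these 4 were E-selectin (Sele) with -0.85 at under 1 CPM in every pup, the sialyltransferase St3gal4 with -0.25 and the chaperone C1galt1c1 with -0.27. Rdx, which encodes the membrane linker radixin, had 0.22 between IUO and SAL (SE 0.07, edgeR adjusted p = 0.530).

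From the 14 genes for ligands and upstream signals of microglia, all of which were tested, 1 had an unadjusted p under 0.05 with a lower level in IUO than in PNO, below the 9.14% of all genes. This was Gas6, a ligand of Mertk, with 143 ± 7.25 CPM in PNO and 121 ± 6.71 CPM in IUO (log2 fold change -0.24, SE 0.09, edgeR adjusted p = 0.193). Between IUO and SAL none of the 14 did. The list holds Cx3cl1, Csf1, Il34 and Tgfb1 among others, and its median log2 fold change was 0.01 between IUO and PNO and 0.05 between IUO and SAL.

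Of 52 further microglial and myeloid genes, 49 were tested. Set against PNO, 3 of them in IUO had an unadjusted p under 0.05 with a higher level and 2 with a lower level, each a share close to or below those of all genes (6.14% and 9.14%). Among the higher ones were the inhibitory Fc receptor Fcgr2b with a log2 fold change of 0.43 and the oxidase subunit Cybb with 0.71, and the lower ones were Rgs10, a regulator of G-protein signalling, with -0.53 and the protease inhibitor Cst3 with -0.39. None of the 49 passed after adjustment in any comparison. Between IUO and SAL 4 were higher and 1 lower at an unadjusted p under 0.05 (3.02% and 3.87% over all genes), of which the thromboxane synthase Tbxas1 had the smallest p (log2 fold change 0.81, SE 0.26, edgeR adjusted p = 0.502). The median over the list was 0.05 in both comparisons.

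Of 17 genes that microglia raise when activated, 14 were tested and none was called. Compared with PNO, 6 of them had an unadjusted p under 0.05 with a lower level in IUO and 1 with a higher level (9.14% and 6.14% over all genes), and the median log2 fold change was -0.20. Lyz2, which encodes lysozyme, had 35.6 ± 12.8 CPM in PNO and 18.1 ± 2.12 in IUO, a log2 fold change of -0.97 (SE 0.25, edgeR adjusted p = 0.110). Gpnmb, a lysosomal glycoprotein, was the higher one with 0.56 (SE 0.16, edgeR adjusted p = 0.126). Apoe, which astrocytes make in larger amount, had -0.39, and the cathepsins Ctsd and Ctsl had -0.19 and -0.21.

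Against SAL, 1 gene of this list was higher in IUO and 2 were lower at an unadjusted p under 0.05 (3.02% and 3.87% over all genes). Spp1 (osteopontin) had -1.73 (SE 0.67, edgeR adjusted p = 0.618), but its SAL pups ranged from 1.13 to 57.0 CPM and enclosed all IUO pups, which lay between 3.21 and 8.25 CPM.

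Marker sums of other cells also differed in their medians between the groups. The 6 markers of myelinating oligodendrocytes had median sums of 4381 TPM in SAL, 6590 in PNO and 2061 in IUO, with ranges from 1381 to 5492 TPM, from 2117 to 11029 TPM and from 1639 to 3783 TPM. All 6 had an unadjusted p under 0.05 with a lower level between IUO and PNO (9.14% over all genes), and none of them did between IUO and SAL (3.87%). Between PNO and SAL the 6 had a median log2 fold change of 0.72, and 1 had an unadjusted p under 0.05 with a higher level (1.89% over all genes). The 8 striatal neuron markers had median sums of 267 TPM in SAL, 273 in PNO and 580 in IUO, and the 5 choroid plexus markers had 52.3, 157 and 62.8 TPM, with no unadjusted p under 0.05 in any comparison for either list. The erythroid markers had median sums of 3872, 3705 and 6700 TPM, with overlapping ranges from 1529 to 6617 TPM in SAL, from 1206 to 6417 TPM in PNO and from 3321 to 22801 TPM in IUO. All 5 erythroid genes tested, of which 2 carry the symbol Hba-a2, had higher levels in IUO, with a median log2 fold change of 0.99 against SAL and 1.06 against PNO. Of these 5, 3 had an unadjusted p under 0.05 against SAL and 2 against PNO, where 3.02% and 6.14% of all genes did, and none passed after adjustment. Their part in the levels of Selplg and Tmem119 was not tested beyond the following fit. With a score of the myelin markers as a covariate, an alternative chosen after seeing the data, the log2 fold change between IUO and PNO was -1.14 for Selplg and -1.35 for Tmem119 (edgeR adjusted p = 0.219), and between IUO and SAL it was -1.12 and -1.36 (edgeR adjusted p = 0.118 for each).

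With a score of the other microglia genes as a covariate, also chosen after seeing the data, Selplg had -1.14 between IUO and PNO and -1.16 between IUO and SAL.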

How the data were processed

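RNA-seq libraries (TruSeq V2, which does not mark strand; 75 bp single reads, 1 flow cell) were made from the PFC of 18 pups at P14. Per the file headers, the authors deposited for each pup an expected count, a TPM, an FPKM and a gene length for 32623 genes. The expected count deposited by the authors is an unnormalized estimate that divides a read among the genes it matches, and 90.08% to 91.12% of the values of a pup (zeros included) were within 0.005 of a whole number. The TPM deposited by the authors was used to compare levels between genes, and the FPKM and gene length deposited by the authors were used for no value given here. The aligner, the quantification program, the annotation and the genome build are not given in the sources used here.

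After rounding of the expected counts, groups were compared by the two-sided quasi-likelihood test of edgeR 4.0.16 (R 4.3.3), with TMM factors, the filterByExpr filter by group and a single model of all 3 groups. P-values were adjusted by Benjamini-Hochberg over 15703 genes. Calls needed an adjusted p below 0.05 and a 1.5-fold change. Log2 CPM used a prior count of 2. Totals per pup lay between 18381819 and 26084780. No table held values of samples other than these 18.

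The members and lists were chosen with earlier results of these data known. Members were all accounted for; members named with full values were Selplg, those with an unadjusted p under 0.05 in a comparison, and the 3 highest and 3 lowest by TPM in SAL, and further members were chosen after their values were seen. Genes of other lists were named at an unadjusted p under 0.05 against PNO or SAL in IUO, at most 5 per list with the smallest p, and the neighbours of Selplg were added. The result for 1 gene of these lists is not reported here. The planned permutation p-values of the correlations with Selplg are not given, because Selplg was chosen by its group difference. Alternatives were DESeq2 1.42.0, limma-voom (limma 3.58.1) with quality weights, other size factors, no composition normalization, no filter, the 12 pups compared, a replicate block, each pup left out in turn and 2 marker scores as covariates. Python 3.11.15 with pandas 2.3.3, numpy 2.4.6, scipy 1.17.1 and matplotlib 3.10.9 made tables and plots.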

Additional observations from a re-analysis of the deposited data

Results flagged for a closer look

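In 108 sets of 6 pups (36 genes in 3 groups), 4 held a pup far from the other 5 on the log2 CPM scale. Chance gives such a pup in about 1 of 20 sets. Sall1 was high in SAL pup 6, at 6.34 on the log2 scale against 5.18 in the nearest pup. P2ry6 was high in IUO pup 1, at 2.06 against 1.49. Csf1r was low in IUO pup 2, at 5.89 against 6.21. Cd68 was low in PNO pup 1, at 0.19 against 0.77. Neither Selplg nor Tmem119 had such a pup in any group.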

How the results depend on the processing

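IUO against PNO chose Selplg, and IUO against SAL holds the same IUO pups. Its values under the alternatives are therefore a description and not a test. The log2 fold change of Selplg kept its direction under each alternative in both comparisons with IUO. Between IUO and SAL it was -1.15 with DESeq2 and -1.13 with limma-voom, and there it passed an adjusted p of 0.05. With 1 pup left out at a time it lay between -1.31 and -1.07 against PNO, between -1.25 and -1.01 against SAL, and between -0.02 and 0.15 for PNO against SAL. The adjusted p of Selplg was under 0.05 in 0 of these 12 fits between IUO and SAL, and that of Tmem119 in 0 of 12 between IUO and SAL and in 1 of 12, without PNO pup 5, between IUO and PNO. The r of Selplg with Tmem119 lay between 0.91 and 0.95.

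The count of genes called was the most dependent on the test. Between IUO and PNO (7 in the main test) it was 13 with no composition normalization, 172 with DESeq2, 703 with limma-voom, 50 with only the 12 pups compared, 0 with the myelin score and from 0 to 58 with 1 pup left out (58 without PNO pup 5, 13 without PNO pup 3, 12 without IUO pup 1, 6 without PNO pup 1 and at most 2 without any other pup of these groups). Between IUO and SAL it was 22 with DESeq2, 17 with limma-voom and from 0 to 1 with 1 pup left out, and between PNO and SAL 1 with DESeq2 and 0 with any pup left out. The cause was not tested.

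Of the 36 genes, those with an unadjusted p under 0.05 between PNO and SAL (3) were 1 with only the 12 pups compared and 1 with the myelin score, and those between IUO and PNO (5) were 3 with the myelin score. With 1 pup left out they were 4 to 6 (IUO against PNO), 2 to 5 (IUO against SAL) and 1 to 7 (PNO against SAL), and the median log2 fold change of the 36 lay between -0.11 and 0.01, between -0.04 and 0.05 and between 0.01 and 0.12.

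Same-numbered pups of PNO and SAL deviated together with a mean r of 0.23 (over 0.1 in 4 of 6 pairs). The mean r was -0.03 for IUO against SAL (1 of 6) and 0.06 for IUO against PNO (3 of 6). For pups of unlike numbers it was -0.046, 0.005 and -0.013 in the same comparisons. The labels do not say whether the numbers pair the pups. With the replicate block Selplg had -1.22 between IUO and PNO, -1.16 (edgeR adjusted p = 0.166) against SAL and 0.06 for PNO against SAL, and 5 genes were called in IUO against PNO. Depth limits the lowest genes most: Cd68 fell to 16 expected counts in a pup, Hpgds to 17 and Vav1 to 23, and Selplg to 31.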
